A study of Mus musculus with 12 samples.

Results

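The genes described here are 35 interferon-stimulated effector genes of the mouse, chosen by symbol from the 24062 genes counted. They are the antiviral effectors outside the oligoadenylate synthetase, IFIT, IRF, PARP, ISG15 and guanylate-binding families. All 35 symbols were found. RNA of liver and of gastrocnemius, a calf muscle, was sequenced from 6 female C57BL/6N mice fed chow. The R135W group held 3 mice homozygous for R135W (animals 5, 7 and 12, aged 9.0, 7.4 and 8.6 weeks), an arginine-to-tryptophan change in the mitochondrial methionyl-tRNA synthetase, which the nuclear gene Mars2 encodes. The WT group held 3 mice with the wild-type gene (animals 6, 8 and 9, aged 9.0, 9.0 and 7.4 weeks). Each of the 4 groups of tissue and genotype thus has 3 libraries, and an animal number in a library's label pairs its liver with its muscle. The labels name no litter, founder line or hour of sampling.

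Interferons are secreted cytokines that bind receptors on most nucleated cells. Type I and III interferons act through JAK kinases on transcription factors that bind the interferon-stimulated response element in the promoters of target genes. Interferon gamma acts through factors that bind gamma-activated sites. The target genes encode proteins that block virus entry, genome replication and release, degrade or edit foreign nucleic acid, or tune the response itself. Hepatocytes, the macrophages of the liver and muscle fibres can all express such genes, at levels that differ between cell types.

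Total counts ran from 20751583 to 30460237 per library. The unit of level is CPM, a count over the library size after TMM scaling within a tissue, and changes are log2 fold changes of R135W over WT with their SE. A gene passed the test at an adjusted p under 0.05 over all genes tested in edgeR's quasi-likelihood test. These p-values measure the spread between 3 animals of a genotype. Hepatocyte markers summed to 78741 to 84664 CPM in R135W liver and 99686 to 100338 CPM in WT liver. In gastrocnemius, myofibre markers summed to 140595 to 170975 CPM in R135W and 135373 to 151992 CPM in WT. Mars2 itself had 2.65, 2.47 and 3.67 CPM in R135W livers, against 2.30, 2.54 and 3.48 CPM in WT livers. In muscle it had 10.5, 9.28 and 8.59 CPM in R135W, against 12.6, 10.7 and 11.9 CPM in WT. It passed the test in neither tissue (edgeR adjusted p = 0.90 in liver and 0.295 in muscle). A count per gene does not show the base change, so it does not check the genotype labels.

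In the mm10 annotation of the files several of the genes are neighbours. Rsad2 (26442743 to 26456452) and Cmpk2 (26469215 to 26479837) lie beside each other on chromosome 12, and Mx1 and Mx2 on chromosome 16 between 97447035 and 97560901. On chromosome 7, Trim30a and Trim30d lie between 104409026 and 104507849, and Ifitm1, Ifitm2 and Ifitm3 between 140954839 and 141010744. The 5 Schlafen genes lie on chromosome 11 between 82952102 and 83122659, and Phf11b and Phf11d on chromosome 14 between 59320964 and 59365490.

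The promoters of 7 of the genes are shown. They were picked from those where the core of the interferon-stimulated response element lies before the start site. The core was searched as GAAANNGAAA on both strands in the RefSeq windows of GRCm38.p6, from 250 bases before to 50 bases after each start. A window was found for 31 of the 35 genes. Mx1, Mx2, Rtp4 and Tor3a had none. The core was present in 14 of the 31 genes (45.2%), and in 1065 of the 26994 other genes with a window (3.95%). The genes were chosen as interferon-stimulated, so this share describes the choice of genes and is no result of the genotype comparison. The gamma-activated site, searched as TTCNNNGAA, was present in 4 of the 31 genes (12.9%) and in 9.55% of the others. The searches were separate, and matches may overlap each other. The stretches printed are the 150 bases before the start site, read 5′ to 3′ on the strand of the gene, with the core or its reverse complement in capitals. Ifitm2, Apobec3 and Phf11b also have a core in these 150 bases and are not printed. Of them, Apobec3 and Phf11b passed the test in liver only, and Ifitm2 passed in neither tissue. Rsad2 is at chr12:26456453-26456602 (minus strand), Bst2 at chr8:71537473-71537622 (minus strand) and Ddx60 at chr8:61927937-61928086 (plus strand). These 3 genes rose in both tissues. The neighbouring pairs Trim30a, at chr7:104465194-104465343 (minus strand), and Trim30d, at chr7:104507850-104507999 (minus strand), and Slfn8, at chr11:83020811-83020960 (minus strand), and Slfn9, at chr11:82991831-82991980 (minus strand), show how alike the promoters of paralogs are.
Rsad2: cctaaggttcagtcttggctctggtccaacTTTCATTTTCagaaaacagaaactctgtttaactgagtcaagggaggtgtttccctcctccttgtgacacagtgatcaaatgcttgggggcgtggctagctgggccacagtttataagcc
Bst2: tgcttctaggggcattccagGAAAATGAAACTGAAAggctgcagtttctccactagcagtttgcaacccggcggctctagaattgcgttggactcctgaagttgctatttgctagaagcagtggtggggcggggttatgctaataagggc
Ddx60: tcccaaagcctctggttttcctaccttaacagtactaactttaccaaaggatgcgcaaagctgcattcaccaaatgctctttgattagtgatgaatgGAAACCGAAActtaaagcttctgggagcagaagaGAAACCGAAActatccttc
Trim30a: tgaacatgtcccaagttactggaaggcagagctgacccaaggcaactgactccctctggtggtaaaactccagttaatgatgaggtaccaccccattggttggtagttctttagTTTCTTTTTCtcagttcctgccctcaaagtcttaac
Trim30d: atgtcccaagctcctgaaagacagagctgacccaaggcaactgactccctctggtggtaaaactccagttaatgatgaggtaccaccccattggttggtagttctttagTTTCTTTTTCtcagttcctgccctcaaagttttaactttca
Slfn8: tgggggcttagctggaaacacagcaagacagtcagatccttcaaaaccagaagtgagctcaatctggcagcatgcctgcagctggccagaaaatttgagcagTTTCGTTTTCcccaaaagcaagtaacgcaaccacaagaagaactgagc
Slfn9: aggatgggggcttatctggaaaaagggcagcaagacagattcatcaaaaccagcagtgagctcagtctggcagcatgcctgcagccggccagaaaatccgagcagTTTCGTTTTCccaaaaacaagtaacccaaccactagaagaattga
In Rsad2 and in the Trim30 and Schlafen pairs the core lies on the strand opposite to the gene. Counted from the start site, Bst2 has 2 overlapping copies between -130 and -115, and Ddx60 has 2 separate copies, from -53 to -44 and from -19 to -10. Aligned to each other, the stretches of Trim30a and Trim30d were identical at 140 of 155 aligned positions (90.3%), and those of Slfn8 and Slfn9 at 128 of 154 (83.1%). Of the 14 genes with a core, 10 passed the test in liver and 4 in gastrocnemius. Of the 17 with a window and no core, 8 passed in liver and 4 in gastrocnemius. Ifi44, Xaf1, Lgals3bp and Phf11d were the 4 that passed in both tissues with no core in the window. A match describes only the letters of this window, as does its absence.

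In liver, 22 of the 35 genes rose in R135W and 0 fell in edgeR. Over all 13935 genes tested in liver, 2.76% rose and 0.524% fell. The largest changes were those of Ifi44 (8.39-fold), Rsad2 (6.51-fold), Mx1 (5.67-fold) and Cmpk2 (4.76-fold). All 35 genes had a positive log2 fold change, against 49.3% of all genes tested, and their median was 1.08, against -0.01 over all genes tested. An unadjusted p under 0.05 was reached by 33 of the 35, against 17.6% of all genes tested. For these 33 every R135W library also lay above every WT library, against 13.8% of all genes tested. Ifitm1 and Ifitm2 were the 2 exceptions. The count of 22 moved with single libraries: it was 13 without R135W 7, 11 without WT 8 and 5 without WT 9, and DESeq2 called 29.

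**Figure D1:**
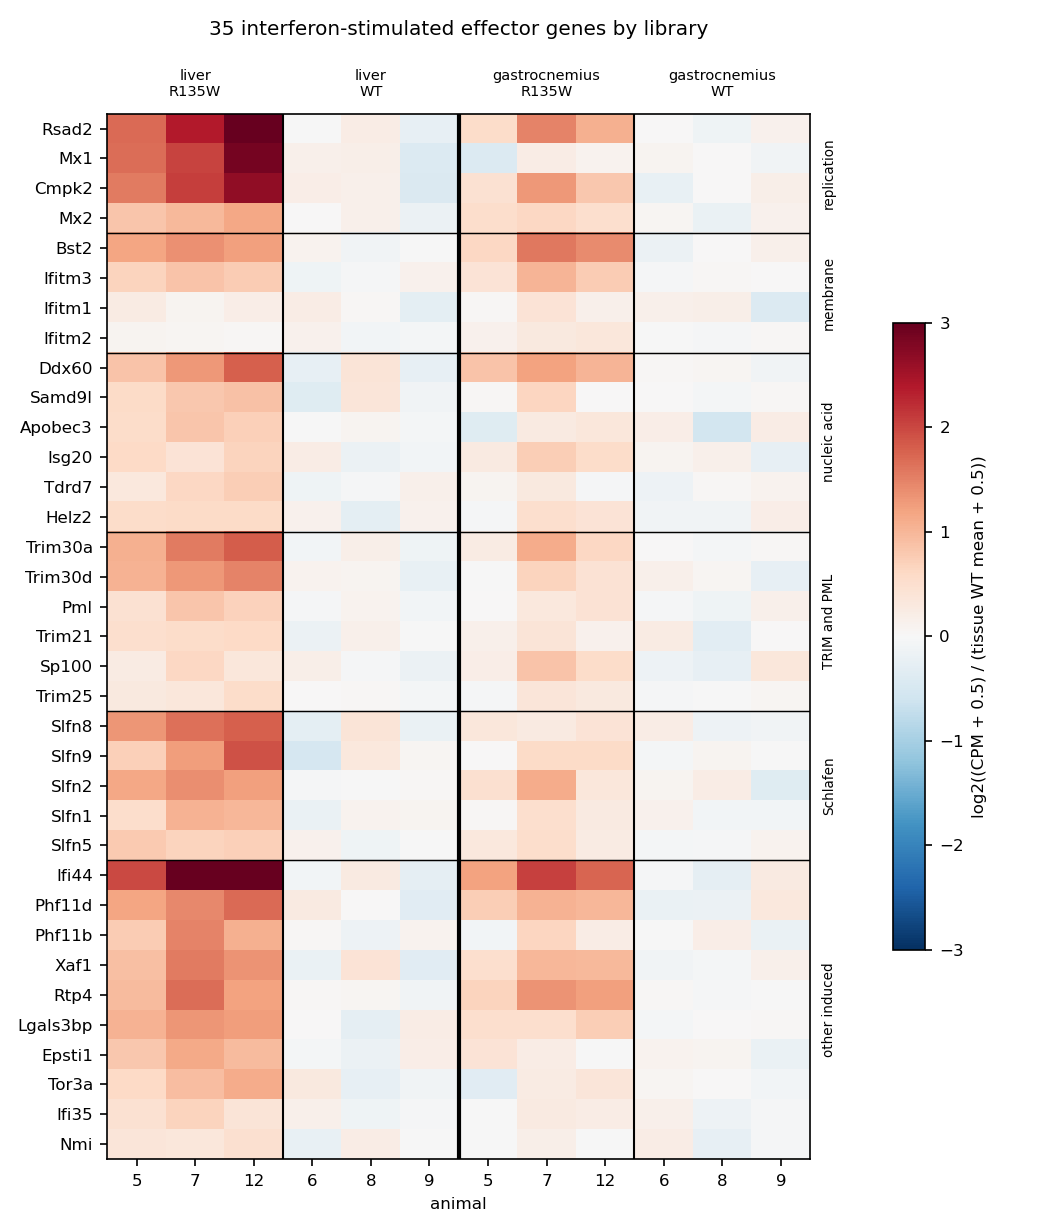
Level of each of the 35 genes (rows, by role) in each of the 12 libraries (columns, by tissue, genotype and animal), as log2 of the CPM plus 0.5 over the WT mean of that tissue plus 0.5. The colour scale ends at 3 and -3. In liver the R135W columns are red for nearly all rows and palest in animal 5, and Ifitm1 and Ifitm2 stay near white, while in gastrocnemius animal 7 is the deepest column.

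The genes that block genome replication had the highest median of the role groups in liver, with 4 of 4 past the test and a median log2 fold change of 2.38. Rsad2 encodes viperin, a radical SAM enzyme that makes a chain-terminating nucleotide. It had 33.2, 53.4 and 107.0 CPM in R135W livers, against 9.81, 11.7 and 8.30 CPM in WT livers (log2 fold change 2.70, SE 0.39, edgeR adjusted p = 0.0122). Its neighbour on chromosome 12, Cmpk2, encodes a mitochondrial nucleoside monophosphate kinase and had 21.2, 30.7 and 46.0 CPM in R135W livers, against 7.95, 7.76 and 4.94 CPM in WT livers (2.25, SE 0.30, edgeR adjusted p = 0.0092). In both genes the levels of the 3 R135W animals were far apart, lowest in animal 5 and highest in animal 12, and none reached down to WT. Mx1 encodes a dynamin-like GTPase that acts on influenza viruses in the nucleus, and C57BL/6 mice are known to carry an allele that makes no working protein. It had 9.31, 12.1 and 22.03 CPM in R135W livers, against 2.92, 2.98 and 1.82 CPM in WT livers (2.504, SE 0.35, edgeR adjusted p = 0.0108), in the same order of animals. Its paralog Mx2 rose less, by 1.04 (SE 0.15).

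Of the membrane proteins, 2 of 4 rose in liver. Bst2 encodes tetherin, which holds budding virions on the cell surface. It had 399.1, 450.1 and 408.2 CPM in R135W livers, against 188.8, 163.1 and 172.0 CPM in WT livers (log2 fold change 1.26, SE 0.13, edgeR adjusted p = 0.00451). Ifitm3 encodes an endosomal protein that hinders virus entry and had 519.3, 597.6 and 554.0 CPM in R135W livers, against 301.0, 323.5 and 362.8 CPM in WT livers (0.76, SE 0.13, edgeR adjusted p = 0.0234). For both genes the 3 R135W livers were close together and well above WT. The neighbouring family members did not pass. Ifitm1, whose product sits mainly at the cell surface, had 8.40, 7.41 and 8.13 CPM in R135W livers, against 8.28, 7.16 and 5.63 CPM in WT livers (0.19, SE 0.17). Ifitm2 had 145.5, 141.8 and 138.7 CPM in R135W livers, against 148.4, 129.4 and 131.6 CPM in WT livers (0.06, SE 0.11). In both the groups overlapped. Of the 100-base stretches in Ifitm2 transcripts, 34.9% also occur in transcripts of other genes, so part of its reads may have been placed elsewhere.

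Of the genes acting on nucleic acid, 2 of 6 rose in liver in edgeR and 5 of 6 in DESeq2, and their median log2 fold change was 0.71. Ddx60, a DExD/H-box helicase gene, had 15.4, 21.01 and 29.9 CPM in R135W livers, against 6.89, 10.9 and 6.92 CPM in WT livers (1.42, SE 0.27, edgeR adjusted p = 0.0287). Apobec3, which encodes a cytidine deaminase that mutates retroviral DNA, had 6.24, 7.70 and 7.06 CPM in R135W livers, against 4.07, 4.37 and 3.93 CPM in WT livers (0.76, SE 0.16, edgeR adjusted p = 0.0365). The groups were apart for both. The call of Apobec3 was lost in each of the 6 fits without 1 library, and 6.59% of its exon bases overlap a gene on the other strand. The call of Ddx60 held in 1 of these 6 fits. The exonuclease gene Isg20 (0.65), the helicase gene Helz2 (0.57), the poxvirus restriction gene Samd9l (0.77) and the Tudor domain gene Tdrd7 (0.59) had all R135W livers above WT and did not pass, with edgeR adjusted p from 0.0664 to 0.143, while DESeq2 called Helz2, Samd9l and Tdrd7.

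Among TRIM ubiquitin ligases and nuclear body genes, 3 of 6 rose in liver. Trim30a, which in the mouse dampens NF-kB signalling, had 22.7, 32.3 and 38.7 CPM in R135W livers, against 10.01, 12.1 and 9.68 CPM in WT livers (log2 fold change 1.56, SE 0.20, edgeR adjusted p = 0.00904). Its neighbour Trim30d had 20.2, 24.2 and 27.7 CPM in R135W livers, against 10.4, 10.1 and 8.10 CPM in WT livers (1.34, SE 0.16, edgeR adjusted p = 0.00812). The pair shares 4.41% and 4.57% of the 100-base stretches of its transcripts, so a few reads of one may have been counted for the other. Pml, which builds the nuclear bodies named after it, had 36.1, 47.2 and 42.5 CPM in R135W livers, against 25.6, 28.3 and 24.8 CPM in WT livers (0.68, SE 0.13, edgeR adjusted p = 0.0296). Sp100, another protein of these bodies, Trim21, the cytosolic antibody receptor, and Trim25, a ligase that acts on RIG-I, stood at 0.42, 0.57 and 0.41 and did not pass, while DESeq2 called Trim21. The call of Pml held in 1 of the 6 fits without 1 library.

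Of the Schlafen genes, which restrain proliferation and translation, 3 of 5 rose in liver. Slfn2, a short member that keeps T cells quiescent, had 10.7, 12.8 and 11.3 CPM in R135W livers, against 4.40, 4.52 and 4.66 CPM in WT livers (log2 fold change 1.36, SE 0.14, edgeR adjusted p = 0.0055). The long member Slfn8 had 7.94, 10.1 and 11.1 CPM in R135W livers, against 2.25, 3.88 and 2.43 CPM in WT livers (1.77, SE 0.24, edgeR adjusted p = 0.00978). Slfn5, a long member found in the nucleus, had 25.6, 23.6 and 24.2 CPM in R135W livers, against 16.04, 13.2 and 14.4 CPM in WT livers (0.75, SE 0.12, edgeR adjusted p = 0.0176). In none of the 3 did the groups overlap, and Slfn2 was nearly level within each group. Slfn1 and Slfn9 had changes of 1.19 (SE 0.28) and 1.64 (SE 0.39) with edgeR adjusted p of 0.0628 and 0.0629, just above the threshold, and DESeq2 called both. Slfn1 had 40 to 75 counts per R135W liver and 15 to 24 per WT liver, and Slfn9 had 76 to 240 counts per R135W liver and 20 to 42 per WT liver.

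The other induced genes, of mixed roles, rose in liver for 8 of 10. Ifi44, a cytoplasmic protein gene, had 25.6, 55.7 and 70.8 CPM in R135W livers, against 5.74, 7.46 and 4.98 CPM in WT livers (log2 fold change 3.07, SE 0.36, edgeR adjusted p = 0.00671). Lgals3bp, a secreted glycoprotein that binds galectin 3, had 138.4, 167.2 and 160.1 CPM in R135W livers, against 67.7, 55.4 and 77.7 CPM in WT livers (1.21, SE 0.15, edgeR adjusted p = 0.0082). Rtp4, a receptor chaperone that restricts flaviviruses, had 35.6, 59.2 and 42.8 CPM in R135W livers, against 18.8, 18.9 and 16.97 CPM in WT livers (1.33, SE 0.18, edgeR adjusted p = 0.0108). Ifi44 spread widely over the R135W animals and Lgals3bp little, and no R135W liver reached a WT level. Also higher were the PHD finger genes Phf11d (1.57) and Phf11b (1.36), the apoptosis gene Xaf1 (1.35), Epsti1 (1.08) and Tor3a (0.94), a torsin ATPase of the endoplasmic reticulum. Phf11b shares 13.8% of its 100-base stretches with other genes. Ifi35 and Nmi, whose products bind each other, stood at 0.51 and 0.41 and did not pass, while DESeq2 called Ifi35.

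**Figure D2:**
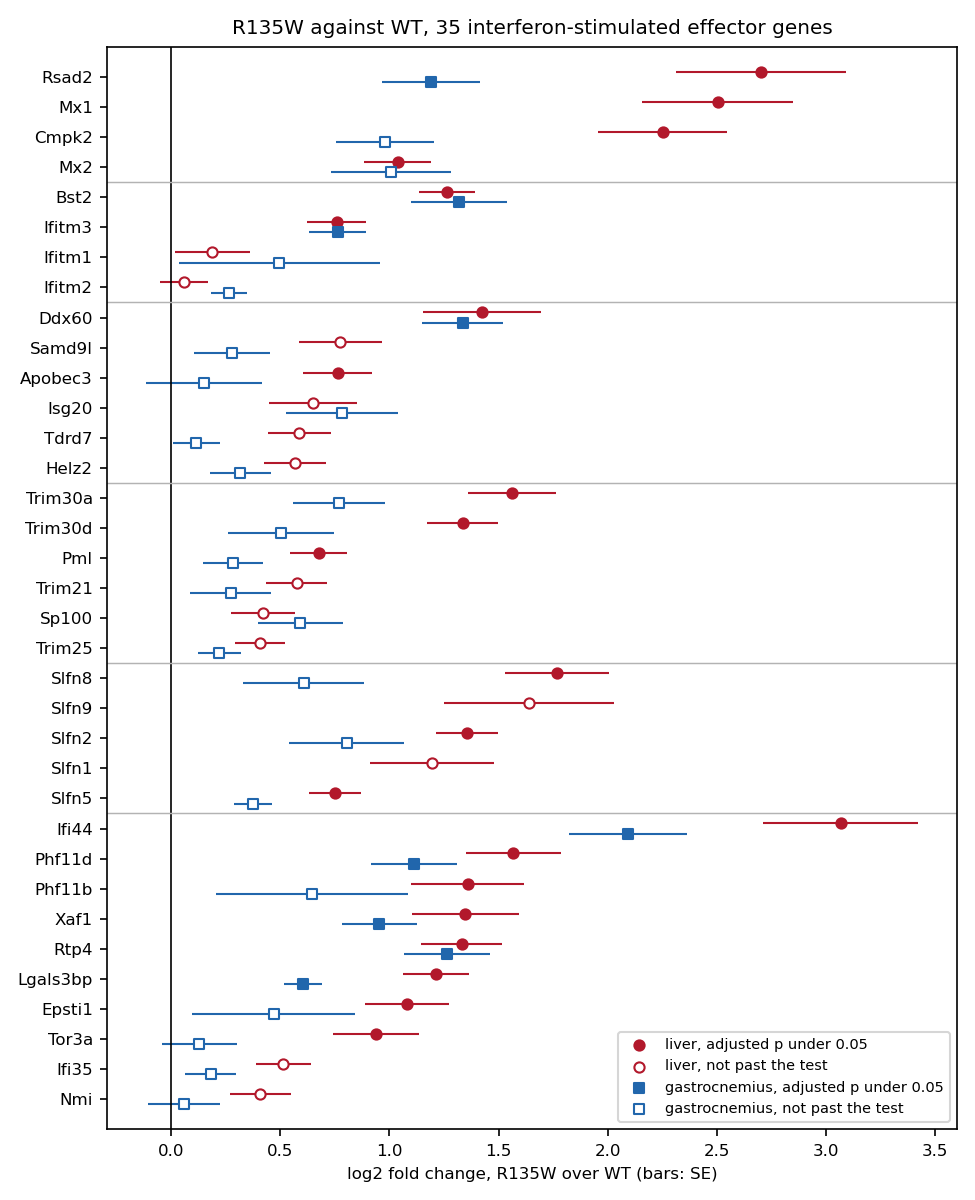
Log2 fold change of R135W over WT (horizontal axis, bars are SE, 3 libraries per group) of the 35 genes in liver (circles) and gastrocnemius (squares), ordered by role. Filled symbols passed edgeR's test at an adjusted p under 0.05. All points lie right of 0, Ifi44 reaches 3.07 in liver and 2.09 in gastrocnemius, and Bst2, Ifitm3, Ddx60 and Rtp4 have nearly the same value in both tissues.

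Markers of immune cells moved with these genes in liver. Of 16 macrophage markers tested, 13 rose, with a median log2 fold change of 1.08, and they summed to 1239 to 1305 CPM in R135W livers and 478 to 714 CPM in WT livers. Lyz2 (0.89), Mrc1 (0.25) and Cd163 (-0.46) did not pass in edgeR, while DESeq2 called Lyz2. Of 5 monocyte markers 4 rose, summing to 20.9 to 26.0 CPM in R135W and 9.96 to 11.3 CPM in WT, and of 5 NK cell markers 2 rose. Neutrophil markers summed to 4.73 to 11.4 CPM in R135W livers and 1.29 to 3.36 CPM in WT livers, with a median log2 fold change of 1.91 over the 4 tested. B cell markers summed to 11.3 to 16.3 CPM in R135W livers and 6.41 to 9.43 CPM in WT livers, and T cell markers to 8.18 to 8.55 CPM in R135W livers and 5.22 to 5.99 CPM in WT livers. In edgeR 0 of the 4 neutrophil, 5 B cell and 7 T cell markers passed, with 3, 4 and 4 at an unadjusted p under 0.05, and DESeq2 called Mpo and Ngp of the neutrophil list, Cd79b of the B cell list and 0 of the T cell list. The summed levels of these 6 lists did not overlap between R135W and WT livers. Of single genes tested in liver, 13.8% had every R135W library above every WT library. In edgeR 2.76% of them rose, and 17.6% had an unadjusted p under 0.05 in either direction. The sums of endothelial markers (191.8 to 239.5 CPM in R135W, 145.8 to 233.9 CPM in WT) overlapped. So did those of fibroblast markers (286.6 to 295.9 CPM in R135W, 246.9 to 303.3 CPM in WT). Of the 3 plasmacytoid dendritic cell markers tested, only Bst2 itself passed in edgeR and in DESeq2. None of the macrophage markers measured was at 0 in liver. The part of these cells in the result was not tested. In bulk tissue, more cells of a type and more RNA per cell cannot be told apart. The summed macrophage level was 1239 CPM in the liver of R135W 5, 1305 CPM in that of R135W 7 and 1275 CPM in that of R135W 12.

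In gastrocnemius, 9 of the 32 genes that passed the expression filter rose in R135W and 0 fell in edgeR. Over all 13826 genes tested in muscle, 0.542% rose and 0.333% fell. The 9 were Rsad2, Bst2, Ifitm3, Ddx60, Ifi44, Xaf1, Rtp4, Lgals3bp and Phf11d. All 9 had also risen in liver, where they made up 9 of 22, in tissue of the same animals. The 32 genes all had positive log2 fold changes, against 49.9% of all genes tested, with a median of 0.60, against 0.00 over all genes tested. An unadjusted p under 0.05 was reached by 18 of the 32, against 11.5% of all genes tested, and for 17 every R135W library lay above every WT library, against 8.24%. The count is fragile: it was 11 without R135W 5, 1 without R135W 12, and 0 without R135W 7, WT 6, WT 8 or WT 9 in edgeR. At an adjusted p, DESeq2 called 12 on all 6 libraries, and a fit of all 12 libraries together called 1, Bst2.

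The replication genes rose in muscle for 1 of 3 tested. Rsad2 had 5.70, 11.3 and 8.37 CPM in R135W muscles, against 3.74, 3.34 and 4.11 CPM in WT muscles (log2 fold change 1.19, SE 0.23, edgeR adjusted p = 0.0489). Cmpk2 and Mx2 stood at 0.98 (SE 0.22) and 1.01 (SE 0.27), with the groups apart and edgeR adjusted p of 0.101 and 0.179. Mx1 was near the limit of counting, with 2, 11 and 9 counts in R135W muscles, against 8, 8 and 6 counts in WT muscles, and was not tested there. The 2 Schlafen genes left out were as low. Slfn1 had 2, 8 and 5 counts in R135W muscles, against 3, 1 and 1 counts in WT muscles, and Slfn9 had 6, 16 and 16 counts in R135W, against 5, 8 and 6 counts in WT.

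Of the membrane proteins, the same 2 of 4 rose in muscle as in liver. Bst2 had 11.5, 22.8 and 20.3 CPM in R135W muscles, against 6.43, 7.31 and 8.17 CPM in WT muscles (log2 fold change 1.32, SE 0.22, edgeR adjusted p = 0.0355). Ifitm3 had 24.7, 37.6 and 31.4 CPM in R135W muscles, against 18.02, 18.7 and 18.5 CPM in WT muscles (0.76, SE 0.13, edgeR adjusted p = 0.0369). WT muscles were nearly level for Ifitm3, and animal 5 was the lowest R135W muscle for both genes. Ifitm2 stood at 0.27 (SE 0.08, edgeR adjusted p = 0.238), with 15.7, 17.8 and 18.3 CPM in R135W muscles, against 14.3, 14.1 and 14.7 CPM in WT muscles. Ifitm1 was under 1 CPM in all 6 muscle libraries. Of the 6 nucleic acid genes 1 rose: Ddx60 had 2.37, 3.22 and 2.74 CPM in R135W muscles, against 1.14, 1.17 and 0.988 CPM in WT muscles (1.34, SE 0.19, edgeR adjusted p = 0.0252). Isg20 stood at 0.78 (SE 0.26, edgeR adjusted p = 0.27) with the groups apart. Helz2 (0.32), Samd9l (0.28), Apobec3 (0.15) and Tdrd7 (0.12) did not pass, and their groups overlapped.

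No TRIM or nuclear body gene and no Schlafen gene passed in muscle in edgeR. Of the 6 TRIM and nuclear body genes 2 had an unadjusted p under 0.05 and DESeq2 called 1, Trim30a. It had 4.99, 9.54 and 6.70 CPM in R135W muscles, against 4.23, 3.97 and 4.30 CPM in WT muscles (log2 fold change 0.77, SE 0.21, edgeR adjusted p = 0.178). Sp100 had 9.61, 15.3 and 12.4 CPM in R135W muscles, against 7.40, 6.85 and 10.5 CPM in WT muscles (0.59, SE 0.19, edgeR adjusted p = 0.27), and its groups overlapped. Of the 3 Schlafen genes tested 2 had an unadjusted p under 0.05 and DESeq2 called 1, Slfn5. It had 45.7, 53.1 and 43.6 CPM in R135W muscles, against 34.98, 35.7 and 39.2 CPM in WT muscles (0.37, SE 0.09, edgeR adjusted p = 0.101). Slfn2 had 3.16, 5.21 and 2.85 CPM in R135W muscles, against 2.28, 2.59 and 1.56 CPM in WT muscles (0.80, SE 0.26, edgeR adjusted p = 0.268). For Trim30a, Slfn5 and Slfn2 the groups were apart, by little in animal 5 or 12. Slfn8 stood at 0.61 (SE 0.28, edgeR adjusted p = 0.444) with the groups apart. It had only 19 to 23 counts per R135W muscle and 12 to 17 per WT muscle.

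Among the other induced genes 5 of 10 rose in muscle. Ifi44 had 3.41, 6.47 and 5.18 CPM in R135W muscles, against 1.14, 0.887 and 1.52 CPM in WT muscles, a 4.27-fold difference (log2 fold change 2.09, SE 0.27, edgeR adjusted p = 0.0184). Lgals3bp had 18.8, 18.7 and 21.997 CPM in R135W muscles, against 12.4, 13.3 and 13.5 CPM in WT muscles (0.60, SE 0.09, edgeR adjusted p = 0.0287). Rtp4 had 4.16, 7.02 and 6.37 CPM in R135W muscles, against 2.52, 2.38 and 2.43 CPM in WT muscles (1.26, SE 0.20, edgeR adjusted p = 0.0289). Each of the 3 lay above WT in every R135W muscle, Lgals3bp alone with animal 12 as the highest. Phf11d rose by 1.11 (SE 0.20) and Xaf1 by 0.95 (SE 0.17). Phf11b, Epsti1, Tor3a, Ifi35 and Nmi stood between 0.06 and 0.64 with overlapping groups. Counts were low for Phf11b (7 to 22 per R135W muscle, 6 to 13 per WT muscle). They were also low for Epsti1 (9 to 15 per R135W muscle, 6 to 11 per WT muscle).

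**Figure D3:**
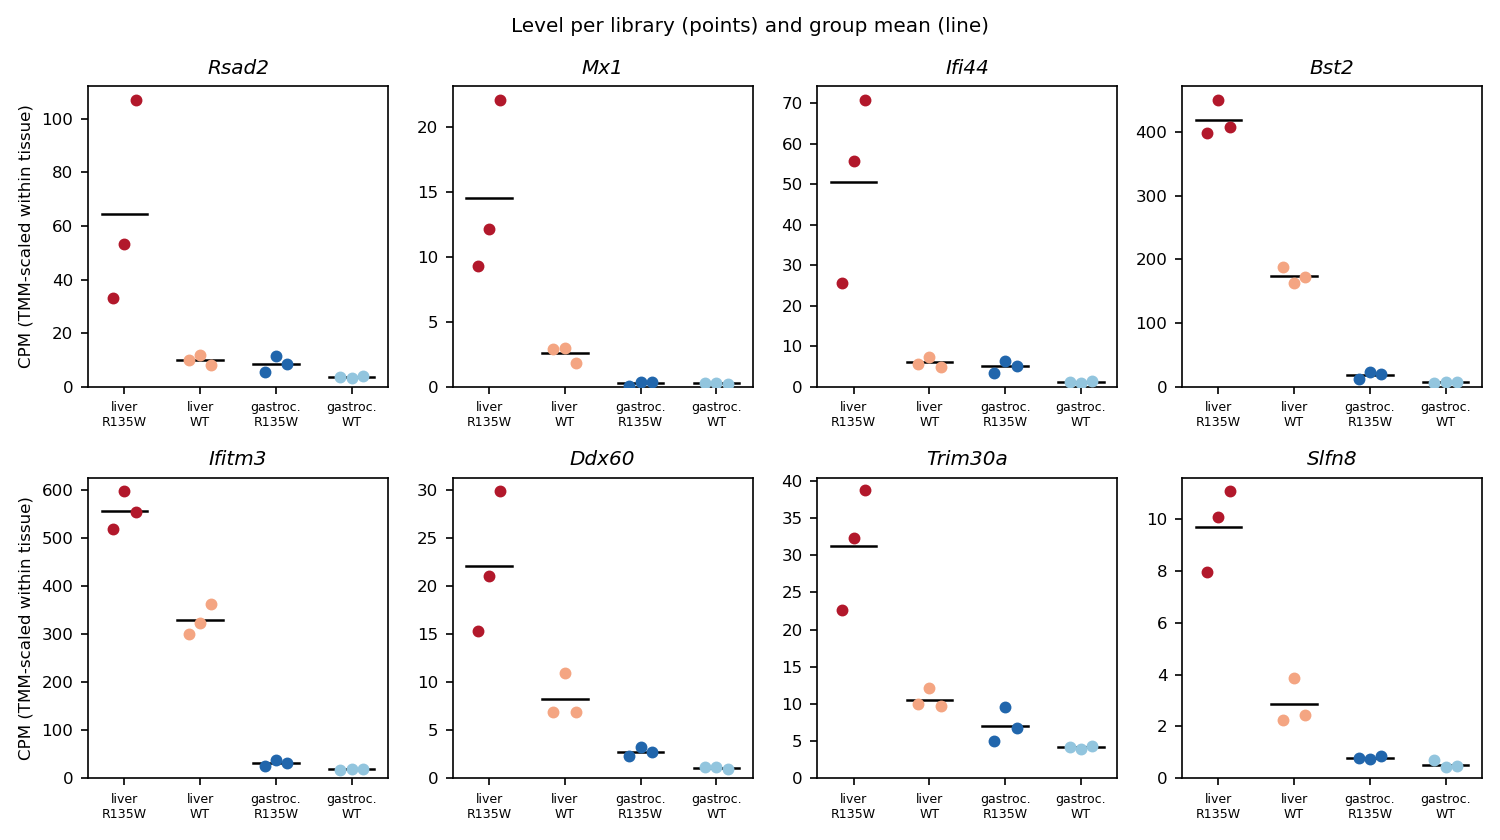
CPM of 8 of the genes in every library (points, one colour per group, left to right within a group animals 5, 7 and 12 for R135W and 6, 8 and 9 for WT) with the group mean (line), each panel on its own axis from 0. Rsad2, Mx1 and Ifi44 spread widely over the R135W livers, up to 107.0, 22.03 and 70.8 CPM, whereas Bst2 and Ifitm3 do not.

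Cell type markers were read in the same muscles. Of 10 macrophage markers tested, 0 passed in edgeR or DESeq2 and 1 had an unadjusted p under 0.05, and they summed to 72.8 to 94.5 CPM in R135W and 69.2 to 86.6 CPM in WT, with overlapping groups. The sums of monocyte, neutrophil and B cell markers overlapped too. Those of T cell markers (0.852 to 0.961 CPM in R135W, 0.710 to 0.836 CPM in WT) did not. Nor did those of NK cell markers (0.444 to 0.499 CPM in R135W, 0.190 to 0.319 CPM in WT). These T and NK cell sums are near the limit of counting. Endothelial markers summed to 286.2 to 304.5 CPM in R135W and 226.5 to 250.3 CPM in WT, with no overlap. Of the 7, Kdr rose in edgeR, 5 had an unadjusted p under 0.05, and DESeq2 called 2, Kdr and Cdh5. Over all genes tested in muscle, 0.542% rose in edgeR and 11.5% had an unadjusted p under 0.05 in either direction. Of single genes tested in muscle, 8.24% had every R135W library above every WT library. Hepatocyte markers summed to 51.0 CPM in the muscle of R135W 12, against 10.4 to 18.8 CPM in the other 5 muscles. The part of these cells in the result was not tested. Of the 32 genes, 18 lay above every WT muscle in R135W 5, 31 in R135W 7 and 26 in R135W 12. The matching share of all genes tested was not computed for single libraries. These counts therefore have no background to be judged against, and some genes would lie above every WT muscle without any genotype effect.

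**Figure D4:**
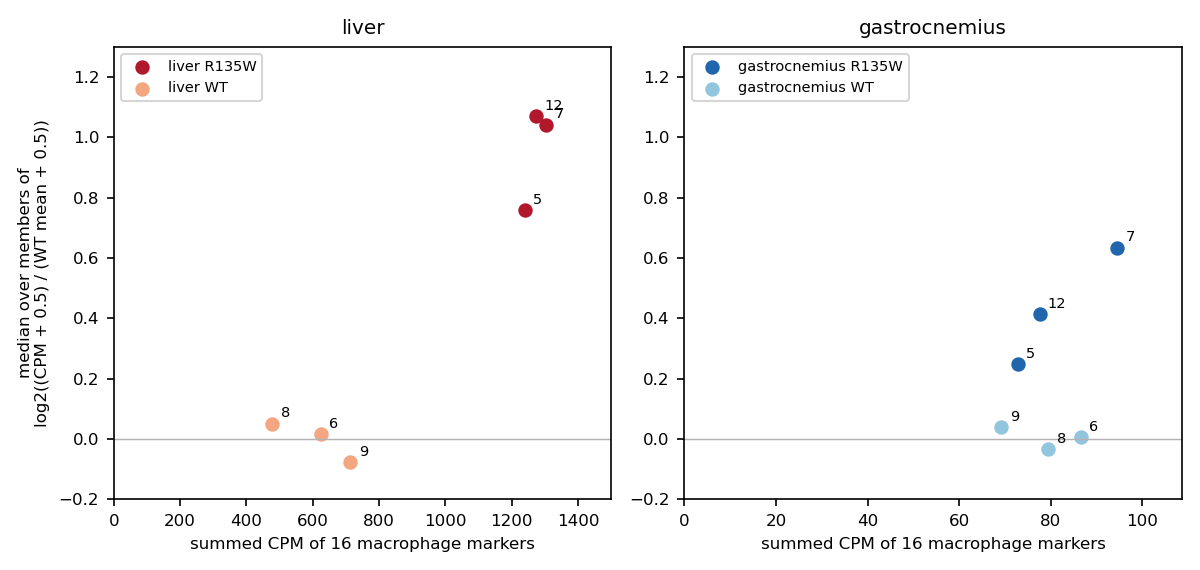
Median over the genes of log2 of the CPM plus 0.5 over the WT mean plus 0.5 (vertical axis) against the summed CPM of 16 macrophage markers (horizontal axis), one point per library with its animal number, for liver (35 genes) and gastrocnemius (32 genes). In liver the R135W points lie apart from the WT points on both axes, and in gastrocnemius on the vertical axis only.

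The R135W animals were not alike. Over the member genes the median log2 ratio to the WT mean, with 0.5 CPM added, was 0.76, 1.04 and 1.07 in the livers of R135W 5, 7 and 12, against 0.02, 0.05 and -0.08 in those of WT 6, 8 and 9. In muscle it was 0.25, 0.63 and 0.41 in R135W 5, 7 and 12, against 0.01, -0.03 and 0.04 in WT 6, 8 and 9. Animal 5 was thus lowest of its genotype in both tissues. It was the lowest R135W liver for 29 of 35 genes (82.9%), against 30.6% of all genes tested, and the lowest R135W muscle for 23 of 32 (71.9%), against 32.5%. The highest differed between tissues, with animal 12 highest in liver for 19 of 35 genes (54.3%, against 36.5% of all genes tested) and animal 7 highest in muscle for 25 of 32 (78.1%, against 33.7%). Genes that vary together within 1 library are not independent of each other. Animals 5, 7 and 12 were aged 9.0, 7.4 and 8.6 weeks, so within R135W age and animal cannot be told apart.

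Whether the genotype effect differed between tissues was tested as the difference of both log2 fold changes, liver minus gastrocnemius, in a fit of all 12 libraries. Of the 35 genes 0 passed in edgeR, against 0.13% of the 15414 genes tested. An unadjusted p under 0.05 was reached by 10 of the 35, Mx1 among them, against 9.95% of all genes, and DESeq2 called 1, Mx1. Mx1, Slfn1 and Slfn9 were below the expression filter in muscle and entered this fit through their liver counts, so their values are no measure of a difference between tissues. With the animal as a block, 0 passed. With these 3 included, the difference was positive for 28 of 35 genes, against 48.1% of all genes, with a median of 0.39, against -0.01 over all genes. Among the genes that passed the filter in both tissues it was widest for Rsad2 at 1.51 (SE 0.52), Cmpk2 at 1.27 (SE 0.42) and Slfn8 at 1.16 (SE 0.39). Lgals3bp had the smallest p, at 0.60 (SE 0.17). The estimates for Mx2 (0.03, SE 0.42), Bst2 (-0.06, SE 0.27), Ifitm3 (-0.01, SE 0.19), Ddx60 (0.08, SE 0.41) and Rtp4 (0.06, SE 0.30) were close to 0. Muscle counts were low for Slfn8 (12 to 23 per library) and Mx2 (9 to 26 per library), which limits their values here. Differences of several times the SE, such as that of Lgals3bp (edgeR adjusted p = 0.238), did not pass with 3 animals per group.

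Levels also differed between the tissues of WT animals. Of the 35, 32 were higher in WT liver than in WT gastrocnemius and 1 was lower, where 40.9% of all genes tested were higher and 41.2% lower. The median log2 ratio of WT liver over WT gastrocnemius was 2.11, against 0.00 over all genes. The 32 and the median both include Mx1, Slfn1 and Slfn9, which were below the expression filter in muscle. They entered this fit through their liver counts, so the filter favoured a higher call in liver for them. Per length, as RPKM scaled over all 12 libraries, Ifitm3 was highest in both tissues, at 497.0 ± 47.6 in WT liver and 28.9 ± 0.508 in WT gastrocnemius (SD, n = 3). Bst2 and Ifitm2 came next in WT liver at 223.0 ± 15.4 and 212.9 ± 15.2 RPKM and did not differ beyond their SD. In WT gastrocnemius they had 9.68 ± 1.10 and 23.2 ± 0.384 RPKM, with Ifitm2 above Bst2. Lgals3bp at 30.2 ± 4.91 and Ifi35 at 23.9 ± 2.43 RPKM followed in WT liver, and Slfn1 (0.472 ± 0.0830 RPKM) and Slfn9 (0.399 ± 0.147 RPKM) were lowest and within their SD of each other.

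The widest tissue differences were those of Bst2, at 4.52 (SE 0.22, 23.0-fold), Ifitm1 at 4.40 (SE 0.31), Mx2 at 4.12 (SE 0.20) and Ifitm3 at 4.11 (SE 0.16). Slfn5 went the other way, with 2.38 ± 0.217 RPKM in WT liver and 6.21 ± 0.349 RPKM in WT gastrocnemius (-1.39, SE 0.10, edgeR adjusted p = 2.02e-08). Slfn5os, on the other strand, overlaps 1.29% of the exon bases of Slfn5, and the counting used no strand. Apobec3 (0.21, SE 0.25) and Tor3a (-0.24, SE 0.21) did not pass. Apobec3 had 1.64 ± 0.100 RPKM in WT liver and 1.42 ± 0.444 RPKM in WT gastrocnemius. The genes that rose in muscle included some of the highest there, such as Ifitm3, and some near 1 CPM in WT muscle, such as Ddx60 and Ifi44.

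**Figure D5:**
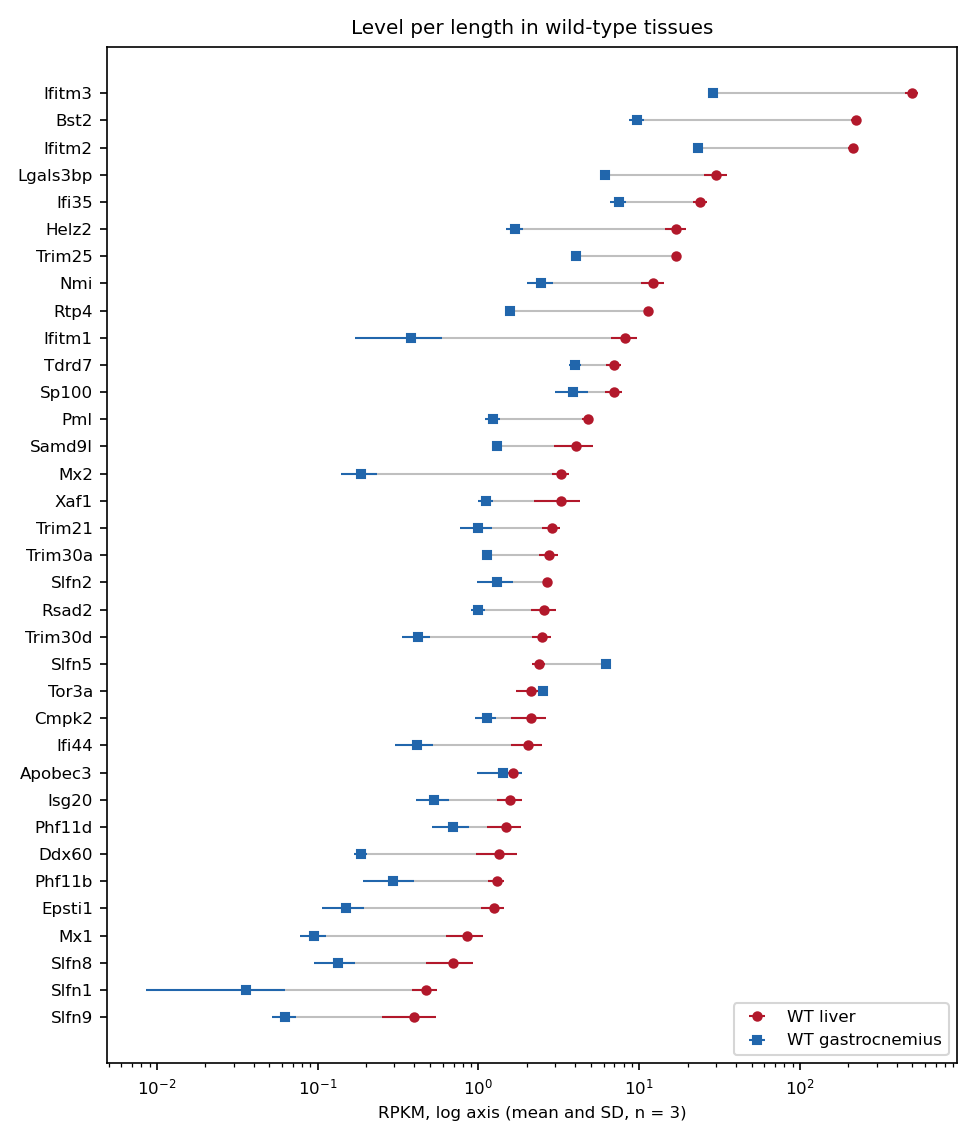
Mean RPKM with SD (3 libraries) of the 35 genes in WT liver (circles) and WT gastrocnemius (squares) on a log axis, ordered by the liver level. Slfn5 is the one gene clearly to the right in gastrocnemius, and Apobec3 and Tor3a overlap between the tissues.

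The rest of the pathway was read from lists of its ligands, receptors, transducers and inhibitors. None of 16 interferon genes passed the expression filter in either tissue. In liver 13 of them had 0 counts in all 6 libraries and in gastrocnemius 14, and a count of 0 allows up to 0.0985 to 0.145 CPM per liver library and 0.105 to 0.126 CPM per muscle library. Ifnb1 had 1, 0 and 1 counts in R135W livers, against 0, 0 and 1 counts in WT livers, and Ifng had 2, 5 and 1 counts in R135W livers, against 0, 0 and 2 counts in WT livers. Ifnk had 0, 1 and 7 counts in R135W livers, against 6, 1 and 8 counts in WT livers. In muscle Ifnb1, Ifng and Ifnk had 0 counts in all libraries. RNA of interferons made in other organs, or by few cells, is not seen in these libraries. Of 5 receptor genes 0 passed in either tissue in edgeR and DESeq2, with 2 at an unadjusted p under 0.05 in liver and 1 in muscle. Over all genes tested, 17.6% in liver and 11.5% in muscle had an unadjusted p under 0.05.

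Of 7 transducer genes 2 rose in liver and 2 in muscle, where 2.76% and 0.542% of all genes tested rose. Irf7, the factor that amplifies type I interferon production, averaged 286.9 ± 66.3 CPM in R135W livers and 50.3 ± 3.82 CPM in WT livers (log2 fold change 2.51, SE 0.19), and 22.1 ± 6.78 CPM in R135W muscles and 3.75 ± 1.10 CPM in WT muscles (2.56, SE 0.26). In liver Irf9 rose by 0.55 (SE 0.11), while Stat2 stood at 0.31 (SE 0.15). In muscle Stat2 rose by 0.70 (SE 0.13), while Irf9 at 0.56 (SE 0.12) did not pass. Of the inhibitors 1 of 8 rose in liver, Usp18, a protease that also blocks the type I receptor, at 1.99 (SE 0.28). In muscle 0 of 7 passed in edgeR, with 2 at an unadjusted p under 0.05, against 11.5% of all genes tested. DESeq2 called 1, Usp18, at an edgeR estimate of 0.93 (SE 0.24).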

How the data were processed

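Per the labels, poly(A) RNA of 12 libraries, liver and gastrocnemius of 6 mice, was sequenced as paired ends. The submitters' processing notes name STAR 2.4.0 as the aligner. Per the file headers, the authors used featureCounts 1.5.2 on read pairs with primary alignments over the exons of UCSC mm10 genes, without strand, and counted a fragment for each gene that it overlaps. The deposited values are these raw counts for 24062 gene symbols. CPM and RPKM were computed here from the counts.

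Tests used edgeR 4.0.16 in R 4.3.3 (filterByExpr, TMM, quasi-likelihood F test, Benjamini-Hochberg adjustment over all genes tested) on the 6 libraries of a tissue, or on all 12 for differences between tissues. SE is the log2 fold change over the square root of F. The tests were checked on simulated data. Replicates differed by more than counting error, with chi-squared per degree of freedom of 8.07 to 117.9 between libraries of a group. The 35 genes, their roles and the lists of pathway and marker genes were chosen with earlier results of these data known. A gene of the transducer list is not reported here. Values per library are given for up to 3 called genes per role and tissue with the smallest p, for 2 where none was called, and for genes below the filter. Ifitm1, Ifitm2, Ifnb1, Ifng and Ifnk were chosen after their values were seen. The animal number in the labels pairs liver with muscle, where age and genotype also match. Deviations of an animal's libraries from their group means correlated at -1.9e-05 to 0.0957. Those of liver and muscle of different animals correlated at -0.113 to 0.0972, so these values do not check the pairing. Shared 100-base stretches were counted in GENCODE M21 transcripts. The alternatives were RLE factors, DESeq2 1.42.0, a stricter filter or none, an age covariate, 1 fit over the 12 libraries, a block per animal, and fits without each library or animal.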

Additional observations from a re-analysis of the deposited data

How the results depend on the processing

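All 35 genes tested in liver and all 32 tested in gastrocnemius were positive with TMM and with RLE factors, where the median of all genes was -0.02 to 0.00. Of the 22 genes called in liver, 5 kept the call in every fit without 1 library (Bst2, Trim30d, Slfn2, Ifi44 and Lgals3bp), and of the 9 in gastrocnemius 0 did. In liver, 5 to 20 of the 35 genes and 84 to 285 of all genes were called without 1 library. All genes called in liver numbered 781 in DESeq2, 1057 in the fit of all 12 libraries and 274 with the age covariate, against 457. With that covariate 17 of the 35 were called in liver, against 22, and 12 in gastrocnemius, against 9. The liver calls lost with it were those of Apobec3, Ddx60, Pml, Xaf1 and Tor3a. In gastrocnemius, 0 to 11 of the 35 and 3 to 106 of all genes were called without 1 library. All genes called there numbered 274 in DESeq2 and 20 in the fit of all 12 libraries, against 121, and that fit called 1 of the 35. For the difference between tissues, 0 of the 35 and 1 to 7 of all genes were called without 1 animal or library, and 1 and 151 in DESeq2, against 0 and 20. Fits without a library have fewer samples, and the cause of the other moves was not tested. With the replicate block, 0 of the 35 and 16 of all genes were called for that difference and 33 of the 35 for WT liver over WT gastrocnemius, and the difference of Ifitm3 turned to 0.012. The block changed no other call of the 35 genes.

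Signs turned in fits without 1 library or animal for log2 values near 0, with these ranges. In gastrocnemius they were -0.013 to 0.32 for Tor3a, -0.064 to 0.20 for Nmi and -0.098 to 0.36 for Apobec3. For the difference between tissues they were -0.11 to 0.091 for Ifitm3, -0.21 to 0.31 for Mx2, -0.28 to 0.077 for Bst2, -0.21 to 0.29 for Ddx60, -0.36 to 0.096 for Isg20, -1.19 to 0.032 for Slfn1 and -0.014 to 0.17 for Rtp4. For WT liver over WT gastrocnemius the range of Apobec3 was -0.083 to 0.39. Depth limits Mx1, Slfn1, Slfn9, Ifitm1 and Epsti1 in muscle and the interferon genes in both tissues, at no more than 16 counts per library. Mx2, Slfn8 and Phf11b were also low in muscle, at no more than 26 counts per library.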
